A study of Rattus norvegicus with 8 samples.

Results

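The genes described here are 3 inflammatory mediators, Il1b, Il6 and Ccl2, and 2 endothelial adhesion molecules, Icam1 and Vcam1. They were taken by Ensembl rat gene ID with no cutoff on their values, though with earlier results of these data known. All 5 were among the 21549 genes listed. The IDs, in that order, are ENSRNOG00000004649, ENSRNOG00000010278, ENSRNOG00000007159, ENSRNOG00000020679 and ENSRNOG00000014333. RNA was sequenced from heart tissue of Sprague Dawley rats, an outbred laboratory strain, aged 3 months. One group of 4 rats was kept in normoxia (the control libraries) and the other group of 4 in chronic hypoxia, that is, low oxygen over a long period, with 1 library taken as 1 animal. No transgene, deletion or drug is named for either group. How low the oxygen was and for how long, the animals' sex and which part of the heart was taken were not given in the sources used here.

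Cytokines and adhesion molecules act in sequence when leukocytes enter a tissue. Il1b encodes a pro-inflammatory cytokine that is made as an inactive precursor, chiefly by activated monocytes and macrophages, and acts on endothelial cells among others. Il6 encodes a cytokine that signals through gp130 and STAT3, and Ccl2 encodes the chemokine that draws monocytes through the receptor CCR2. Icam1 and Vcam1 encode immunoglobulin-superfamily proteins of the endothelial surface, to which integrins of rolling leukocytes bind during firm adhesion. All of these genes are textbook targets of NF-kB, a transcription factor that binds DNA motifs called kappaB sites.

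Because the genes share that regulator in the literature, the 250 bases before the RefSeq transcription start are shown for the 4 genes that the sequence table matched by symbol. Capitals mark matches to a relaxed kappaB motif, in which the first base of the kappaB consensus is free. The sequences are written 5′ to 3′ on the gene's strand from RefSeq, build GRCr8, at chr3:137036582-137036831 (minus strand) for Il1b, chr4:5894576-5894825 (minus) for Il6, chr8:27829595-27829844 (plus) for Icam1 and chr2:206742784-206743033 (minus) for Vcam1.
Il1b: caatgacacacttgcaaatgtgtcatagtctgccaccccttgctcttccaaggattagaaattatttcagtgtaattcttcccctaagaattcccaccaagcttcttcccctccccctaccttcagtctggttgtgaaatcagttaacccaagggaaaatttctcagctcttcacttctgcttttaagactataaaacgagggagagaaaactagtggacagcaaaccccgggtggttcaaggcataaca
Il6: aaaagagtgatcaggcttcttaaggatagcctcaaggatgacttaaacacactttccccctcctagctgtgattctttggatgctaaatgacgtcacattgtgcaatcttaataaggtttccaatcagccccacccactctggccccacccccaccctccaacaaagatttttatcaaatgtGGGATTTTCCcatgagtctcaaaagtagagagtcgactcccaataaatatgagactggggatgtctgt
Icam1: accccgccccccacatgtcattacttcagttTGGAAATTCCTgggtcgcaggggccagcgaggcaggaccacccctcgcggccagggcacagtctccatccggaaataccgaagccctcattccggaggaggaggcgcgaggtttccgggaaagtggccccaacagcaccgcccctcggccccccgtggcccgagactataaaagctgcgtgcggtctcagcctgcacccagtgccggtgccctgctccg
Vcam1: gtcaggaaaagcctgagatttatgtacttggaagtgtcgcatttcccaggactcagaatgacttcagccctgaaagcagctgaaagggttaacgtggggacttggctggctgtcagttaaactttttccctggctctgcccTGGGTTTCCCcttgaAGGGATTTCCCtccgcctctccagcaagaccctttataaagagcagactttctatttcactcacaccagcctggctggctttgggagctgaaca

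The strict kappaB consensus, searched on both strands, matched once in Il6 (GGGATTTTCC, at -68 to -59 from the start) and once in Vcam1 (GGGATTTCCC, at -93 to -84). Of all 33469 RefSeq windows of the same length, 6.33% held a strict match and 21.9% a relaxed one, and every strict match is also a relaxed one. Vcam1 held a further relaxed match at -109 to -100 (TGGGTTTCCC), and the stretch in capitals around -93 also holds an overlapping one that begins at -94. Icam1 held only relaxed matches, 2 overlapping ones from -219 to -209 on opposite strands. Il1b held none in this window. The cyclic AMP response element TGACGTCA was found in Il6 at -162 to -155 and is in 1.59% of windows, and the AP-1 motif TGANTCA, in 6.34% of windows, was found in none of these 4. ACGTG, a core of the hypoxia response element that is in 16.6% of windows, was found in Vcam1 at -159 to -155. TATAAA, in 12.9% of windows, was found in Il1b, Icam1 and Vcam1. A match to letters is a description of the window and not evidence of binding.

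In the comparison of chronic hypoxia with normoxia, Il1b, Ccl2, Icam1 and Vcam1 rose, between 2.08-fold and 2.82-fold, and Il6 was close to the limit of detection. All 4 hypoxic hearts lay above all 4 normoxic hearts for each of these 4 genes. The test was edgeR's quasi-likelihood test on counts over 14214 genes, and a gene is described as called at a Benjamini-Hochberg adjusted p under 0.05. In that fit 33.0% of genes were called, 17.7% higher and 15.3% lower in hypoxia, and 3.76% were called at least 2-fold higher, as these 4 were. Under TMM scaling (trimmed mean of M values) 2516 genes were called higher and 2177 lower, while library totals without TMM gave 1426 and 3870, and the 4 genes were called higher either way. Values of all 4 hypoxia libraries above all 4 normoxia libraries were found in 17.3% of tested genes. The 4 genes met the filter on low counts in the 4 normoxia libraries as well as in the 4 hypoxia libraries, so hypoxia alone did not bring them into the test. Their median log2 fold change was 1.28, against 0.01 for all tested genes.

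**Figure D1:**
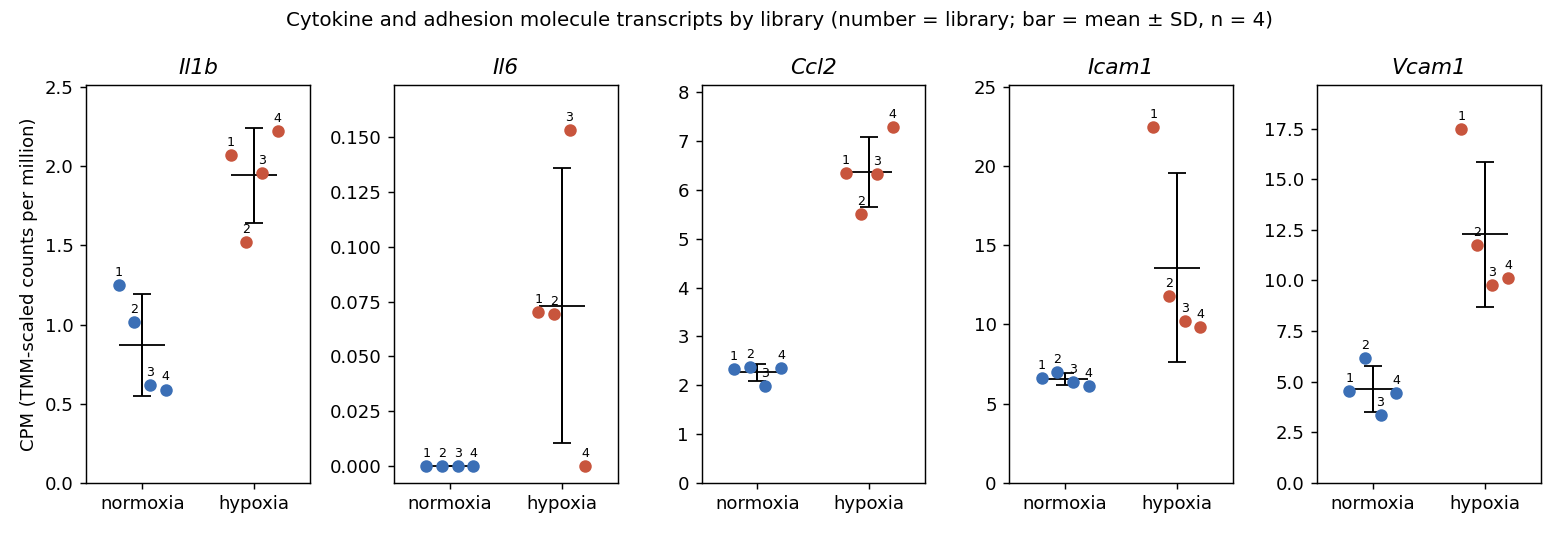
CPM (counts relative to the TMM-scaled library size, vertical axis from 0 for all but Il6) in each of the 4 normoxia (blue) and 4 hypoxia (red) libraries, numbered by library, with bars for mean ± SD. The groups do not overlap for Il1b, Ccl2, Icam1 and Vcam1, hypoxia library 1 is highest for both adhesion molecules, and Il6 stays at or below 0.153 CPM.

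**Figure D2:**
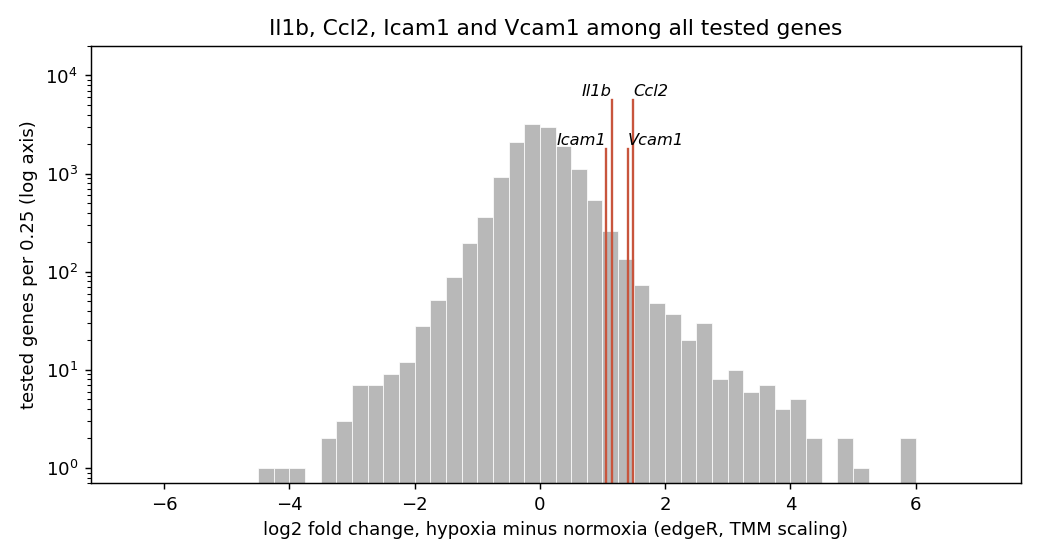
Number of tested genes (vertical log axis) by log2 fold change, hypoxia minus normoxia, in steps of 0.25, with red lines at the values of Il1b, Ccl2, Icam1 and Vcam1. The 4 lines stand between 1.06 and 1.49, on the upper flank of the distribution and short of its largest values.

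Il1b lay in abundance bin 2 of 10 equal bins of tested genes, counted from the lowest. Its counts were 42, 31, 19 and 18 in normoxia libraries 1 to 4 and 59, 44, 51 and 62 in hypoxia libraries 1 to 4. On the CPM scale, which sets counts against the library size after TMM scaling, these were 1.25, 1.02, 0.620 and 0.589 against 2.07, 1.52, 1.96 and 2.22. The normoxic hearts fell into a higher pair (libraries 1 and 2) and a lower pair (3 and 4), and the lowest hypoxic value was 1.22 times the highest normoxic one. Mean CPM rose from 0.869 ± 0.321 to 1.94 ± 0.3003 (SD, n = 4 each), and the log2 fold change of 1.15 had an SE of 0.28 (edgeR adjusted p = 0.0121). This is a 2.22-fold rise with a 95% confidence interval of 1.44 to 3.43. A larger log2 fold change was seen in 3.32% of tested genes. The spread between normoxic hearts, a coefficient of variation of 36.9%, exceeded the 19.1% that counting error alone would give, while in hypoxia the corresponding values of 15.5% and 13.6% were close to each other.

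Il6 gave 0 counts in all 4 normoxia libraries and 2, 2, 4 and 0 counts in hypoxia libraries 1 to 4. These 8 counts were the whole signal for this cytokine, and the gene did not reach the filter in any library. The limit that a count of 0 allows, 3 counts, was 0.0895 to 0.0984 CPM in the normoxia libraries. The hypoxia values were 0.0701, 0.0693, 0.153 and 0 CPM, and only library 3 lay above the limit that 3 counts set there, 0.115 CPM. The exact (Clopper-Pearson) 95% interval of library 3 was 0.0418 to 0.393 CPM, a range that takes in the limits of the normoxia libraries. Such intervals and limits cover counting error only.

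Summed over each group, Il6 stood at 0.0719 CPM in hypoxia and at 0 in normoxia, where 3 counts over the group would be 0.0240 CPM. Hypoxia library 3 held 4 of the 8 counts, and without it the hypoxia value was 0.0469 CPM. No fold is given, since counting error on both sides is large. For the group means of CPM, the two-sided exact permutation test gave p = 0.143 (n = 4 each). Ties at 0 made this the smallest p that these values could give, against 0.0286 without ties. The test could not pass 0.05, so it does not show whether the group means differ. Without a filter, edgeR gave Il6 an unadjusted p of 0.0180 and an adjusted p of 0.0738 in a fit that called 11.5% of 21301 genes higher. A pattern of 0 counts in all normoxia libraries with counts in at least 3 hypoxia libraries, looked for after these values were seen, was found in 0.380% of genes with a count, and the reverse pattern in 0.577%. A difference in Il6 was thus not detectable at this depth, and its absence was not shown either.

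Ccl2 had the highest fold change of the 4 tested genes in this fit, with an interval that overlapped those of the other genes. Its counts were 78, 72, 61 and 72 in normoxia libraries 1 to 4 and 181, 159, 165 and 203 in hypoxia libraries 1 to 4. On the CPM scale these were 2.33, 2.36, 1.99 and 2.36 against 6.35, 5.51, 6.33 and 7.28. The groups stood far apart, with the lowest hypoxic heart at 2.33 times the highest normoxic one. Mean CPM of this monocyte chemokine rose from 2.26 ± 0.180 to 6.37 ± 0.725 (SD, n = 4 each), and the log2 fold change of 1.49 had an SE of 0.14 (edgeR adjusted p = 2.47e-04). This is a 2.82-fold rise with a 95% confidence interval of 2.28 to 3.47. A larger log2 fold change was seen in 1.83% of tested genes. The coefficient of variation was 7.97% in normoxia, below the 11.9% of counting error, and 11.4% in hypoxia, where counting error would give 7.52%.

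Icam1, whose product binds the beta-2 integrins of leukocytes, rose in hypoxia, by amounts that differed widely between hearts. Its counts were 221, 214, 195 and 187 in normoxia libraries 1 to 4 and 640, 341, 267 and 274 in hypoxia libraries 1 to 4. On the CPM scale these were 6.59, 7.02, 6.36 and 6.12 against 22.4, 11.8, 10.2 and 9.83. The normoxic hearts were nearly level, hypoxia library 1 stood far above the other hypoxic hearts, and the lowest hypoxic heart was still 1.40 times the highest normoxic one. Mean CPM rose from 6.52 ± 0.384 to 13.6 ± 5.97 (SD, n = 4 each), and the log2 fold change of 1.06 had an SE of 0.25 (edgeR adjusted p = 0.00960). This is a 2.08-fold rise with a 95% confidence interval of 1.43 to 3.04. Without hypoxia library 1 the log2 fold change was 0.70 with an SE of 0.11 (edgeR adjusted p = 0.00229). The coefficient of variation went from 5.88% in normoxia, under the 6.997% of counting error, to 44.0% in hypoxia, where counting error would give 5.13%.

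Vcam1, whose product binds alpha-4 integrins, rose as well, and the difference between its rise and that of Icam1 did not pass when tested within libraries. Its counts were 152, 188, 103 and 136 in normoxia libraries 1 to 4 and 499, 339, 255 and 282 in hypoxia libraries 1 to 4. On the CPM scale these were 4.53, 6.17, 3.36 and 4.45 against 17.5, 11.7, 9.78 and 10.1. Both groups were spread out, library 1 again stood highest in hypoxia, and the lowest hypoxic heart was 1.59 times the highest normoxic one. Mean CPM rose from 4.63 ± 1.16 to 12.3 ± 3.58 (SD, n = 4 each), and the log2 fold change of 1.41 had an SE of 0.23 (edgeR adjusted p = 0.00181). This is a 2.66-fold rise with a 95% confidence interval of 1.88 to 3.76. A larger log2 fold change was seen in 2.13% of tested genes, against 4.07% for Icam1. Without hypoxia library 1 the log2 fold change of Vcam1 was 1.18 with an SE of 0.19 (edgeR adjusted p = 0.00252).

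Icam1 and Vcam1 can also be set against each other inside each library, where the scaling between libraries plays no part. The ratio of Icam1 FPKM to Vcam1 FPKM was 2.204, 1.73, 2.87 and 2.08 in normoxia libraries 1 to 4 and 1.94, 1.53, 1.59 and 1.47 in hypoxia libraries 1 to 4. FPKM is the count scaled to gene-model length in kilobases and to the library total. Icam1 exceeded Vcam1 in every library, and the groups overlapped through normoxia library 2 and hypoxia library 1. The mean log2 ratio in normoxia was 1.13 ± 0.30 and that in hypoxia 0.70 ± 0.18 (SD, n = 4 each). The difference of -0.43 did not pass (two-sided exact permutation p = 0.0571), so an unequal rise of the 2 adhesion molecules was not established.

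The hypoxic hearts ranked differently for the mediators and the adhesion molecules. Relative to the mean log2 CPM of the 4 hypoxia libraries, library 1 was higher by 0.81 for Icam1 and 0.55 for Vcam1 but by 0.10 for Il1b and less than that for Ccl2. Il1b and Ccl2 were both highest in library 4, at 0.20 above their means, and lowest in library 2, at -0.32 and -0.20. Library 4 was the lowest for Icam1, at -0.38, and next to the lowest for Vcam1, at -0.24. With 4 hearts this order is a description, and no correlation was computed. The SD of log2 CPM between hypoxic hearts was 0.55 for Icam1 and 0.38 for Vcam1, above the median of 0.23 over all tested genes, while that of Il1b was 0.23 and that of Ccl2 0.16. Between normoxic hearts Il1b (0.50) and Vcam1 (0.35) were above the median of 0.13, and Ccl2 (0.12) and Icam1 (0.08) were below it. These medians are not matched for abundance, and counting error, largest for Il1b among the 4, is part of each SD.

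**Figure D3:**
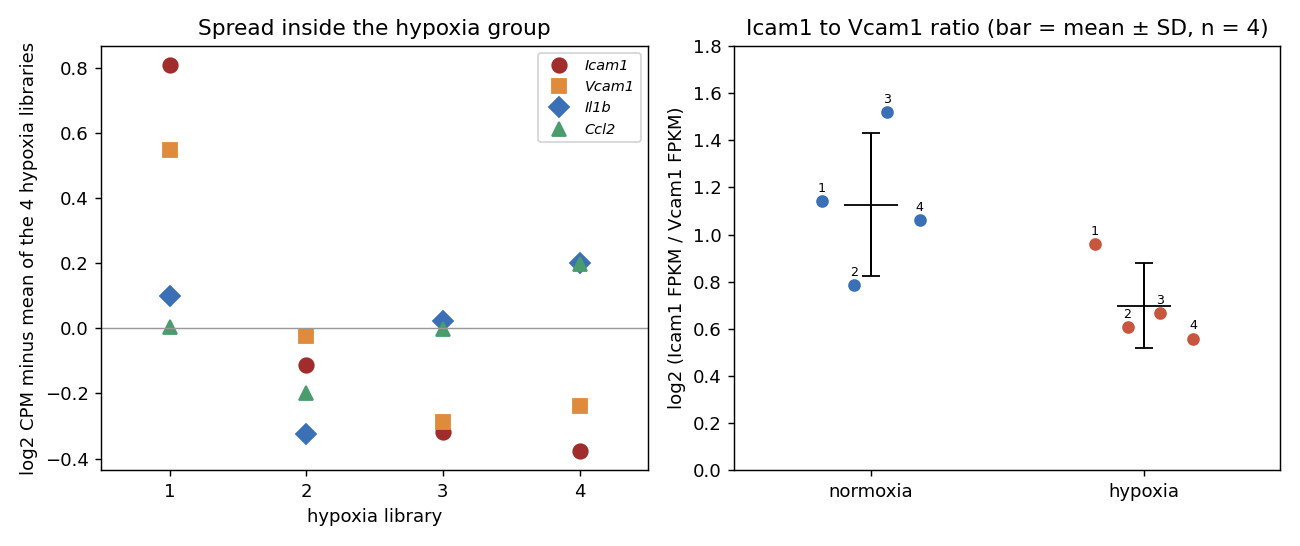
Left, log2 CPM of Icam1, Vcam1, Il1b and Ccl2 in each hypoxia library minus the mean of the 4 hypoxia libraries. Right, log2 ratio of Icam1 FPKM to Vcam1 FPKM in each library, numbered, with bars for mean ± SD. Library 1 stands at 0.81 and 0.55 for the adhesion molecules, and the ratios of the groups overlap.

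Scaled by gene-model length, all 5 transcripts were of low to middling level in the heart. Mean FPKM in normoxia was 2.87 ± 0.228 for Ccl2, 2.62 ± 0.205 for Icam1, 1.23 ± 0.321 for Vcam1 and 0.664 ± 0.254 for Il1b (SD, n = 4 each), and Il6 was at 0 in each library. The FPKM ranges of Ccl2 and Icam1 overlapped, as did those of Vcam1 and Il1b. In hypoxia the order was the same, with 7.18 ± 0.852 for Ccl2, 4.88 ± 2.32 for Icam1, 2.90 ± 0.934 for Vcam1, 1.31 ± 0.223 for Il1b and 0.0678 ± 0.0599 for Il6. There the range of Icam1, 3.33 to 8.33 FPKM, overlapped those of both Ccl2 and Vcam1, whereas Il1b, at 0.980 to 1.45 FPKM, lay below Vcam1 throughout. Of the 21301 genes with a count, 56.2% had a lower mean FPKM than Ccl2 in normoxia and 73.3% in hypoxia. For Icam1 these shares were 54.9% and 66.8%, for Vcam1 46.4% and 58.1%, and for Il1b 40.6% and 48.1%.

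Fold changes in this series are related to gene-model length, shorter models tending to be higher in hypoxia, and the 4 genes lie at different lengths. The models were 835 bp for Ccl2, 1396 bp for Il1b, 2643 bp for Icam1 and 4007 bp for Vcam1. When the tested genes were divided into 10 equal bins by length, the median log2 fold change was 0.35 in the bin of Ccl2, 0.16 in that of Il1b, -0.01 in that of Icam1 and -0.11 in that of Vcam1. Calls higher in hypoxia made up 34.0%, 25.0%, 13.0% and 8.66% of those bins. After a correction that took each library's length trend out, the log2 fold change was 1.25 for Ccl2, 0.99 for Il1b, 1.09 for Icam1 and 1.53 for Vcam1 (edgeR adjusted p = 5.85e-04, 0.0270, 0.0113 and 0.00191). All 4 kept their calls, and Vcam1 then stood above Ccl2.

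Library totals ran from 26229304 to 32160710 counts. Hypoxia libraries 1 and 2 had counts in 17480 and 17485 genes, fewer than the 17914 to 18125 genes of the other libraries. The first principal component of log2 CPM (49.0% of variance) separated the groups. The second (20.9%) set hypoxia libraries 1 and 2, at -37.9 and -29.8, apart from libraries 3 and 4, at 29.3 and 27.9, so the 4 genes were also fitted without each pair. Without libraries 1 and 2 the log2 fold changes were 1.25 for Il1b, 1.58 for Ccl2, 0.61 for Icam1 and 1.09 for Vcam1 (edgeR adjusted p = 0.0143, 8.93e-05, 0.00192 and 0.00239). Without libraries 3 and 4 they were 1.03, 1.38, 1.38 and 1.65 (edgeR adjusted p = 0.0455, 3.21e-04, 0.00111 and 6.47e-04). On the log2 scale Icam1 thus moved over 1.5 times while keeping its direction and its call. The rise of Icam1 and Vcam1 was present in both pairs of hypoxic hearts and larger in libraries 1 and 2, a difference that was not tested. It lay mostly in library 1, at 22.4 CPM for Icam1 and 17.5 for Vcam1. Library 2, at 11.8 and 11.7 CPM, was nearer to library 3 (10.2 and 9.78) and library 4 (9.83 and 10.1).

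**Figure D4:**
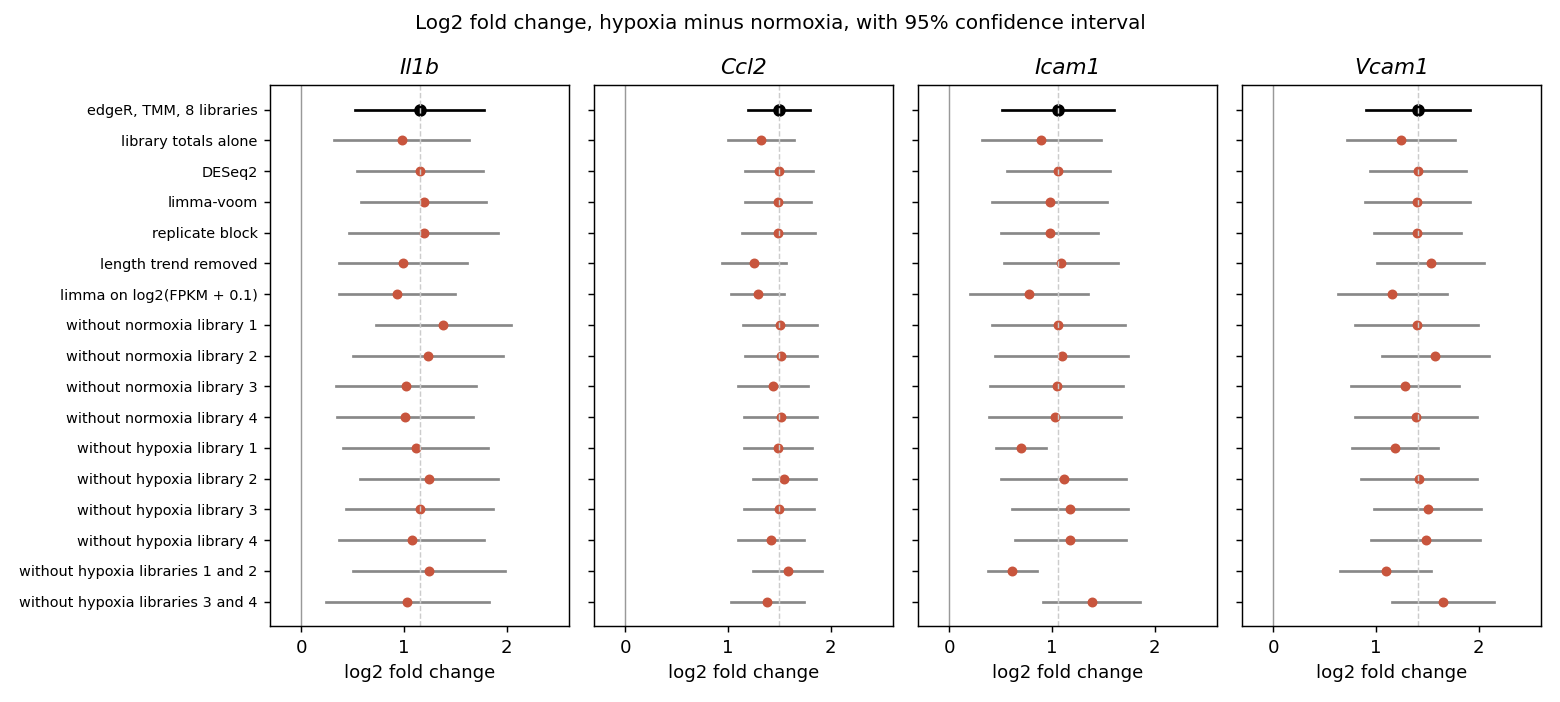
Log2 fold change, hypoxia minus normoxia, with 95% confidence interval (horizontal axis) for Il1b, Ccl2, Icam1 and Vcam1 in the edgeR fit of all 8 libraries (black) and under alternatives (red), one per line. Every interval drawn lies above 0, and the estimate for Icam1 is lowest without hypoxia libraries 1 and 2, at 0.61. Only some of the alternatives are drawn. Those in which Icam1 was not called are left out: limma on log2(FPKM + 1) (adjusted p = 0.0523) and on log2(FPKM + 0.1) without a filter (adjusted p = 0.0649).

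In a bulk heart sample, more cells of a type and more RNA per cell cannot be told apart. Levels of endothelial, leukocyte, cardiomyocyte and other cell type markers, and of the receptors, integrins and NF-kB genes that act with these 5, were not analysed here, because the gene table used paired 0 of the 21549 IDs with a symbol. The tissue label was not checked against heart markers for the same reason, and the part of leukocyte or endothelial content in these rises was not tested.

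Genes whose levels followed these 4 most closely were sought by Pearson's r of log2 CPM over the 8 libraries, among 12658 other genes whose mean reached 1 CPM. The 8 libraries form 2 separate groups, so a high r mostly reflects a like difference between groups, and r is given as a description. The closest were both like Ccl2, ENSRNOG00000010099 with an r of 0.997 and ENSRNOG00000006542 with 0.996. ENSRNOG00000010099 rose from 51.7 ± 1.07 to 61.9 ± 1.07 CPM (SD, n = 4 each), and the log2 fold change of 0.26 had an SE of 0.06 (edgeR adjusted p = 0.0120). ENSRNOG00000006542 rose from 104 ± 5.48 to 161 ± 8.47 CPM (SD, n = 4 each), and the log2 fold change of 0.62 had an SE of 0.08 (edgeR adjusted p = 6.12e-04). The highest r with a single gene was 0.995 for Il1b, 0.992 for Icam1 and 0.989 for Vcam1. None of the 3 genes closest to each was another of these 4, and Il6, below the filter, was not among the genes compared.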

How the data were processed

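RNA was sequenced from 8 rat hearts, 4 in normoxia and 4 in chronic hypoxia, and grouped by the labels' titles. The authors deposited whole-number counts per Ensembl gene and FPKM values. In 100% of values above 0, count over FPKM and library total gave the same length for a gene (relative tolerance 0.001), so FPKM hold no other scaling. Per the submitters' processing notes, HISAT2 2.1.0, Bowtie2 2.2.3, HTSeq 0.6.0, bcl2fastq and build rn6 were used. Their roles, annotation, strand setting and the handling of multi-mapping reads were not given in the sources used here, so reads of overlapping or antisense genes cannot be separated.

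Counts were fitted with edgeR 4.0.16 in R 4.3.3 with group as the only term, all 8 libraries, TMM scaling and filterByExpr (minimum count 10), which kept 14214 genes. Benjamini-Hochberg adjustment ran over all of them. CPM are counts over the TMM-scaled library size, and log2 CPM used a prior count of 2. The SE came from the test statistic. Exact permutation tests, two-sided and over the 70 ways to assign the libraries (scipy 1.17.1), were run for Il6 and for the ratio of Icam1 to Vcam1, with no adjustment over these 2. Alternatives were other scalings, DESeq2 1.42.0, limma 3.58.1 (voom, and log2(FPKM + 1) or log2(FPKM + 0.1), with and without a filter at a mean FPKM of 0.1), other filters, a replicate block, a lowess length correction (span 0.3), and libraries left out. The edgeR fit was first run on simulated data with the same spread in both groups. In the real data the coefficient of variation beyond counting error was 9.54% within normoxia and 22.9% within hypoxia. The simulation does not cover that unequal spread.

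The 5 genes, the gene lists and the tests were chosen with earlier results of these data known. The rule for named genes took the 5 genes, members of fixed pathway lists that a gene table names, and the 3 genes most like each of the 5. The gene table (assembly GRCr8) named no ID, so the pathway and cell type lists have no values, and of the most similar genes 2 that rose are given by ID.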

Additional observations from a re-analysis of the deposited data

Results flagged for a closer look

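In 11 groups of 4 values, the libraries' CPM of the 5 genes and the ratio of Icam1 to Vcam1 in each condition but not Il6 in normoxia, which was 0 throughout, 2 had a library far from the others by Dixon's test, where chance marks about 5% of groups. Icam1 in hypoxia library 1 was at 22.4 CPM, with the other hypoxic hearts at 9.83 to 11.8. Ccl2 in normoxia library 3 was at 1.99 CPM, with the other normoxic hearts at 2.33 to 2.36. Without normoxia library 3 the log2 fold change of Ccl2 was 1.44 (edgeR adjusted p = 0.00178).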

How the results depend on the processing

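Il1b, Ccl2 and Vcam1 kept their direction and call in all 23 alternatives, with log2 fold changes of 0.48 to 1.38, 1.07 to 1.58 and 0.79 to 1.65. The lowest value of each came from limma on log2(FPKM + 1), where the added 1 makes changes at low FPKM smaller. Icam1 kept its direction in 23 and its call in 21, at 0.61 to 1.38. It missed in limma on log2(FPKM + 1), at 0.63 (adjusted p = 0.0523), and on log2(FPKM + 0.1) without a filter, at 0.78 (adjusted p = 0.0649). The cause was not tested. Both use library totals, with which edgeR gave 0.89 (adjusted p = 0.0222). Limma on log2(FPKM + 0.1) with the filter also uses library totals, and it called Icam1 at 0.78 (adjusted p = 0.0433). Library totals alone moved the median log2 fold change of all genes to -0.17 and lowered that of Il1b to 0.98, Ccl2 to 1.32 and Vcam1 to 1.24. They also changed the split of calls over all genes from 2516 higher and 2177 lower to 1426 and 3870.

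With each library left out in turn, log2 fold changes were 1.01 to 1.38 for Il1b, 1.42 to 1.55 for Ccl2, 0.70 to 1.18 for Icam1 and 1.18 to 1.58 for Vcam1, with edgeR adjusted p of at most 0.0394, and 3315 to 4758 genes were called. The ratio of Icam1 to Vcam1 then differed by -0.54 to -0.30 (log2, exact permutation p = 0.0571 to 0.114), and Il6 by 0.0465 to 0.0976 CPM (exact permutation p = 0.0571 to 0.286). Without hypoxia libraries 1 and 2 Il6 differed by 0.0767 CPM (exact permutation p = 0.667) and without 3 and 4 by 0.0697 CPM (exact permutation p = 0.133). Without ties, the smallest possible permutation p was 0.0571 with a single library left out and 0.133 with a pair left out. Ties at 0 raised that smallest p for Il6, except where hypoxia library 4 was left out, alone or with library 3. The range of p for Il6 follows these ties. None of these permutation tests could therefore pass 0.05, and they do not show whether the results for Il6 and the ratio hold. In limma on log2(FPKM + 0.1) without a filter Il6 had an adjusted p of 0.0839, and DESeq2 without a filter gave it an unadjusted p of 0.0701 and no adjusted p. With the replicate number as a block, log2 fold changes were 1.19 for Il1b, 1.49 for Ccl2, 0.98 for Icam1 and 1.40 for Vcam1, all called, and 3841 genes were called. The labels do not state whether the numbers pair the animals. Correlations of same-number libraries, each relative to its group mean, were -0.0847 to 0.0187. They showed no pairing by number, but with 4 libraries per group they cannot exclude one. The Il6 differences in CPM under other scalings and without libraries, and DESeq2 without a filter, were chosen after seeing the data. Il6 had no value in alternatives that keep the filter. The low counts of Il1b and Il6 limit the precision of both.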
